A study of Mus musculus with 2 samples.

Results

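The genes described here are 9 leukocyte adhesion receptors and ligands, Icam1, Icam2, Vcam1, Alcam, Selp, Sele, Jam2, Cd44 and Mfge8, taken by symbol from the 32285 genes of a mouse kidney single-cell RNA sequencing study. All 9 are in the gene list of both libraries, and Sele had no UMI in any saline barcode. The study compared 1 library from cisplatin-treated mice with 1 library from saline-treated mice.

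Leukocytes leave the blood in steps. Selectins (Selp and Sele, P- and E-selectin) slow them on the vessel wall by binding sugars carried on leukocyte proteins. The immunoglobulin-family receptors Icam1, Icam2 and Vcam1 then hold them through leukocyte integrins, and junction proteins such as Jam2 guide their passage between endothelial cells. Icam1, Vcam1 and Sele are classic cytokine-inducible genes of endothelium, whereas Icam2 and Jam2 are made by resting endothelium. Cisplatin is a platinum drug whose dose-limiting toxicity is injury to the kidney tubule, followed by inflammation.

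The cisplatin library came from male C57BL6/J mice aged 10 to 12 weeks, 72 h after 20 mg/kg cisplatin. The saline library came from male C57BL6/J mice of the same age given saline instead. The design text names 5 mice, and 10 kidneys per condition, so each library pools animals and carries no measure of the spread between them. Digested kidney was enriched on magnetic beads for CD31 (Pecam1, an endothelial surface protein) and then for podoplanin, with a flow cytometry check for CD45-negative cells, and the product was labelled as lymphatic endothelial cells. Counts are of unique molecular identifiers (UMIs), each of which stands for 1 captured transcript molecule.

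To show the regulatory sequence of an inducible member from each class, the promoters of Icam1 (9, plus strand) and Sele (1, plus strand) are given from RefSeq on GRCm38.p6, from 250 bases before to 50 bases after the annotated start. Capitals mark matches on either strand to GGNNNTTCC, a loose form of the site that NF-kB family factors bind. The motif was picked after the sequences had been seen.
Icam1 (chr9:21015690-21015989, plus strand): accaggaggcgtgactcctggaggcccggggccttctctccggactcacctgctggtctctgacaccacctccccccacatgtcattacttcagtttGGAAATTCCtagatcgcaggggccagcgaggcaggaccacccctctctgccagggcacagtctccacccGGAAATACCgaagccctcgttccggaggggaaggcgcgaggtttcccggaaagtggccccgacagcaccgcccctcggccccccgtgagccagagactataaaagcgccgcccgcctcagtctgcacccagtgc
Sele (chr1:164047984-164048283, plus strand): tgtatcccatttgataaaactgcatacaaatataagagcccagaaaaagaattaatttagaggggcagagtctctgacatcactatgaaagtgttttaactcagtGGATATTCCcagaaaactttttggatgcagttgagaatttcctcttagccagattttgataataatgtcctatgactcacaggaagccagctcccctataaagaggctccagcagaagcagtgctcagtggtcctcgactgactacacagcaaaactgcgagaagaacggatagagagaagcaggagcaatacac
Icam1 held 2 places, GGAAATTCC at 153 bases before the start, which matches on both strands, and GGAAATACC at 84 bases before it, which matches on the minus strand. Sele held GGATATTCC at 145 bases before the start. Of the 6 members in the promoter table, Icam1, Sele and Selp held a match and Alcam, Cd44 and Mfge8 held none; Icam2, Vcam1 and Jam2 are not in that table. A match stood in 18.4% of all 27025 promoters of this length, so it describes the letters and identifies no bound site. In the GRCm38 annotation (GENCODE M21), the Icam1 gene spans chr9:21015985-21028817 and Sele spans chr1:164048234-164057677, both on the plus strand. Icam1 and Vcam1 overlap the antisense genes Gm47079 and Gm43109, and Selp overlaps Gm16587 and Gm16548 on the opposite strand. With the strand setting of the counting not given in the sources used here, reads of those 3 genes and their partners cannot be told apart if strand was not used.

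Barcodes with at least 500 UMIs and at most 20% mitochondrial UMIs were kept, 1729 for cisplatin and 627 for saline, out of 19994105 and 5879496 UMIs in all, and no kept barcode was shared. An endothelial barcode needed 3 of 15 pan-endothelial markers and more of them than leukocyte markers, which gave 298 barcodes for cisplatin (1308776 UMIs, median 1485 per barcode) and 461 for saline (978349 UMIs, median 1064). All 15 markers were detected in each endothelial gate. Lymphatic markers (Prox1, Lyve1, Mmrn1, Reln, Ccl21a and Pdpn) summed to 29 UMIs in the cisplatin and 11 UMIs in the saline endothelial gate, so the cells are called here by their gates and not by the label. Endothelial barcodes with at least 2 markers of capillary, glomerular or arterial endothelium, and more than of the other types, were given that vessel type. The capillary gate held 89 cisplatin and 207 saline barcodes, the glomerular gate 70 and 34, and the arterial gate 10 and 142. The tubule gate held 445 cisplatin and 31 saline barcodes, and the leukocyte gate held 81 cisplatin and 3 saline barcodes, too few in saline to say anything of the treatment.

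The endothelial gates differed in quality as well as in treatment. The median mitochondrial share was 8.83% in cisplatin and 1.56% in saline endothelial barcodes. The share of free RNA, estimated from proximal tubule markers, was 22.8% in cisplatin and 6.18% in saline. Of the endothelial barcodes, 42.6% in cisplatin and 6.72% in saline held a UMI of a mural, urothelial or collecting duct marker or of the podocyte genes Nphs1 or Wt1. All 8 mural markers were detected in the cisplatin endothelial gate, with 1361 UMIs in sum, while 5 of the 8 were at 0 in saline, with 25 UMIs in sum. Leukocyte markers summed to 124 UMIs in cisplatin and 28 UMIs in saline endothelial barcodes, with 5 and 11 of the 20 at 0. The part of these differences in the results below was not tested, except where a value without such barcodes is given.

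Levels are given as CPM, the UMIs of a gene scaled by all UMIs of the gate. With 1 library per treatment no test was possible and no p-value is given. A gene was called higher or lower when its CPM ratio of cisplatin over saline was at least 1.5 either way and its exact 95% interval left out 1, given at least 20 UMIs over both libraries of the gate; genes with that many UMIs are called measured. All intervals cover counting error only, and UMIs that clump in a few barcodes make them too narrow.

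Of the 9 genes, 5 were measured in the capillary gate, where Icam1, Vcam1 and Mfge8 were called higher in cisplatin and Icam2 and Jam2 were neither. Across all 4881 genes measured there, 9.28% were called higher and 11.5% lower. The median log2 ratio was 0.78 over the 5 measured members, beside -0.08 over all measured genes. In the arterial gate 4 were measured and Vcam1 was called higher, beside 5.46% of 5022 genes higher and 8.48% lower. In the glomerular gate 5 were measured and Mfge8 was called higher, beside 3.86% of 5229 genes higher and 6.08% lower. In the tubule gate Icam1 and Mfge8 were measured and neither was called, beside 1.06% of 3301 genes higher and 3.6% lower. The median log2 ratio of all genes there was -0.17. In the leukocyte gate Cd44 alone was measured and was not called, beside 1.82% of 1761 genes higher and 4.83% lower.

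**Figure D1:**
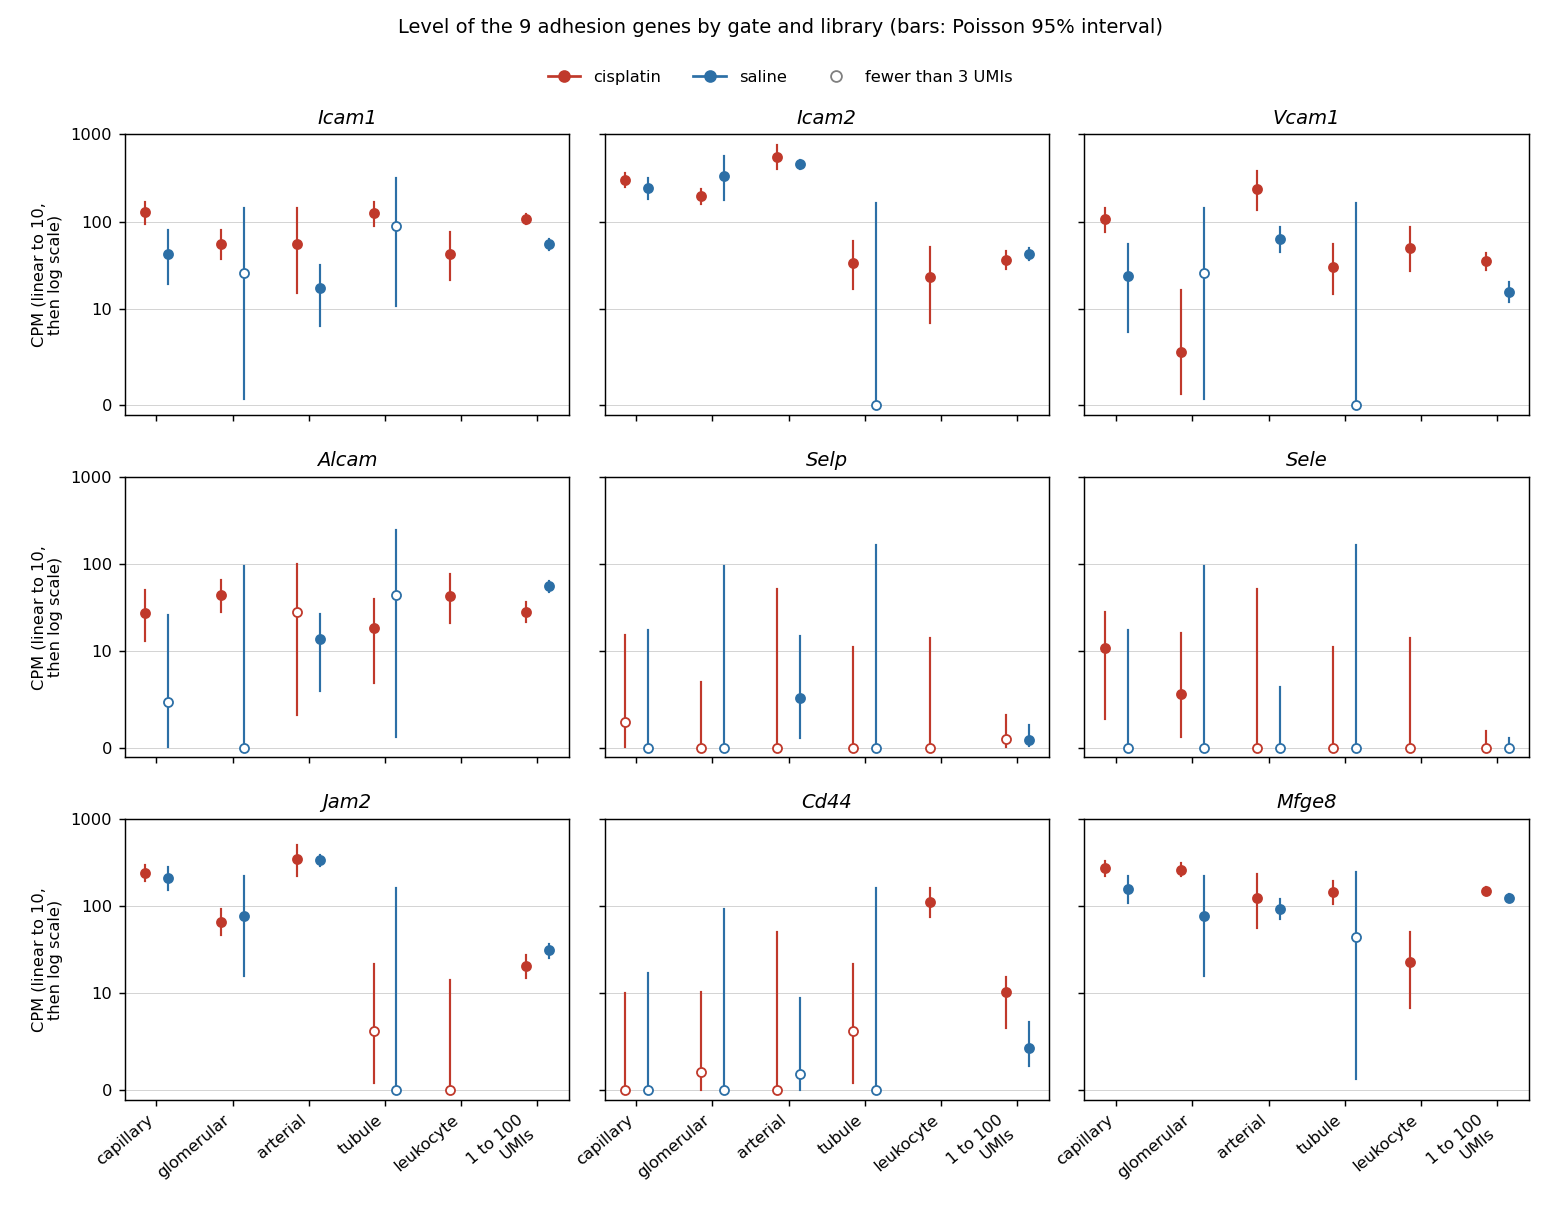
Level in CPM (linear to 10, then logarithmic) of the 9 genes in the vessel, tubule and leukocyte gates and in barcodes of 1 to 100 UMIs, with cisplatin in red left of saline in blue; bars are Poisson 95% intervals and open points rest on fewer than 3 UMIs. Icam2 and Jam2 have their highest points in the arterial gate of both libraries, with intervals that overlap another vessel gate in places. Cd44 stands out in the cisplatin leukocyte gate, and the 3 saline leukocyte barcodes are not drawn.

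**Figure D2:**
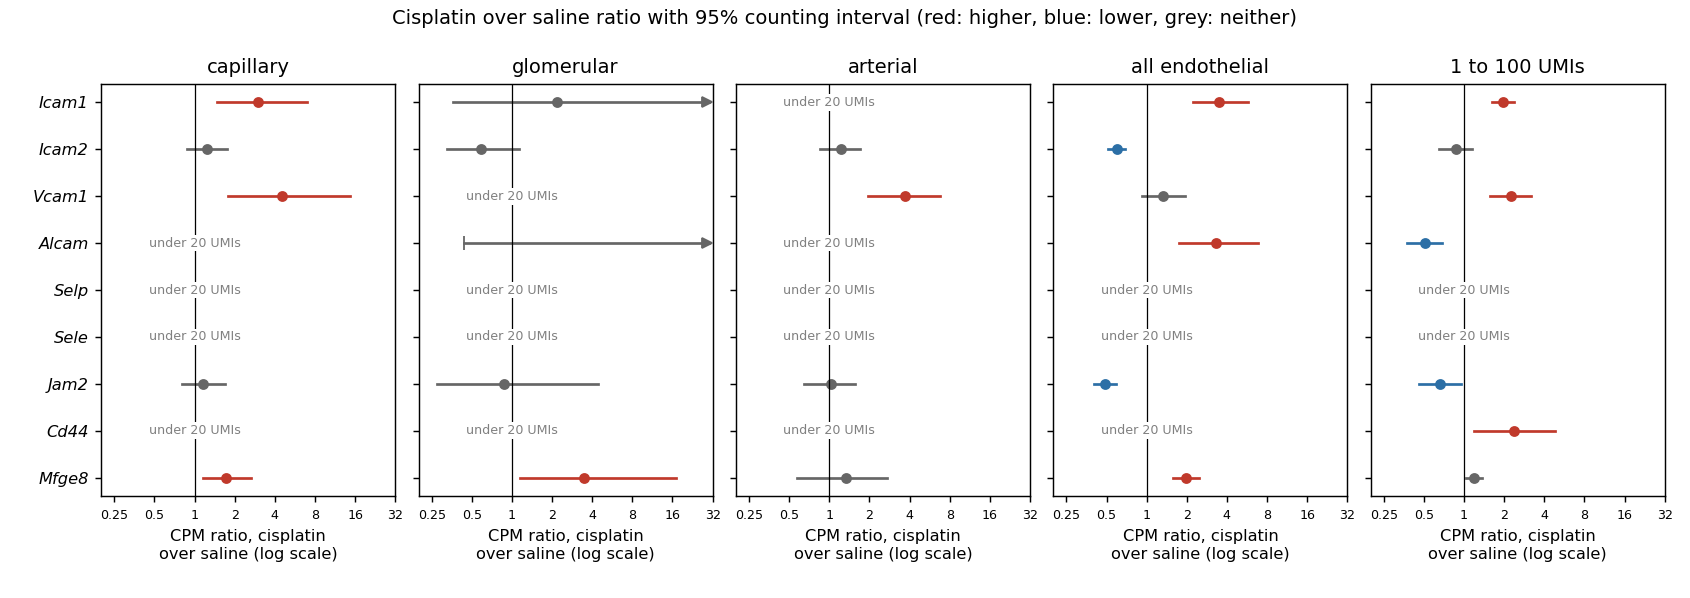
CPM ratio of cisplatin over saline on a log scale with its exact 95% interval, for the members with at least 20 UMIs in the gate; arrows mark intervals that run past the axis, and a bar without a point is a gene at 0 UMIs in saline. Icam1 lies above 1 in each panel where it is drawn, with intervals that leave out 1 in the capillary, pooled endothelial and near-empty panels.

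Icam1 encodes the endothelial receptor for the leukocyte integrins LFA-1 and Mac-1. In the capillary gate it stood at 127 CPM in cisplatin (47 UMIs) and 42.2 CPM in saline (9 UMIs), a ratio of 3.02 (1.46 to 6.999). It was detected in 19 of 89 cisplatin and 6 of 207 saline capillary barcodes. In 1 barcode lay 14 of the 47 cisplatin UMIs, and in 1 saline barcode 3 of the 9. Of the 47, 28 lay in the 25 cisplatin capillary barcodes with another lineage's UMI. Icam1 stood at 146 CPM in those 25 and 107 CPM in the other cisplatin capillary barcodes. Both the level and the share were higher in cisplatin. The depth of the gates differed, with a median of 1891 UMIs in cisplatin and 847 in saline. As the mean over all thinnings of each barcode to 500 UMIs, 6.09% of cisplatin and 1.61% of saline capillary barcodes held an Icam1 UMI, and the ratio of the mean thinned levels was 3.47. One random thinning gave 8.99% of cisplatin (3.96 to 16.9) and 0.48% of saline barcodes (0.01 to 2.66), farther apart than the means over all draws. Over the whole endothelial gate Icam1 stood at 82.5 CPM in cisplatin (108 UMIs) and 23.5 CPM in saline (23 UMIs), a ratio of 3.51 (2.22 to 5.77). It was called higher there with barcodes above 20000 UMIs left out (4.31) and with barcodes holding other-lineage UMIs left out (4.56, 2.60 to 8.26). The capillary call was lost under other settings. Among capillary barcodes with at most 10% mitochondrial UMIs the ratio was 1.65 (0.72 to 4.09). With barcodes holding other-lineage UMIs left out it was 2.64 (1.10 to 6.96) and still called higher. Without barcodes holding a podocyte, urothelial or collecting duct marker UMI, 5 UMIs remained in cisplatin and 2 in saline, too few to be called, as was also the case after the random thinning.

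The 2 smaller vessel gates gave Icam1 few UMIs. The glomerular gate held 30 UMIs in cisplatin and 1 in saline, a ratio of 2.17 with an interval of 0.36 to 88.7. Of the 30 cisplatin UMIs, 11 came from 1 barcode. The arterial gate held 4 UMIs in cisplatin and 10 in saline (55.4 and 17.1 CPM), too few to be called. Neither gate resolves a difference at this depth.

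Icam1 UMIs were also found in tubule and near-empty barcodes. In the tubule gate it stood at 124 CPM in cisplatin (41 UMIs) and 88.6 CPM in saline (2 UMIs), a ratio of 1.40 (0.36 to 12.0). Over all thinnings, 5.77% of cisplatin and 3.96% of saline tubule barcodes held a UMI, at unthinned medians of 663 and 624 UMIs. The exact intervals of the Icam1 share in cisplatin capillary and cisplatin tubule barcodes overlapped in the random thinning (3.96 to 16.9 and 3.49 to 7.92). Overlap in 1 draw cannot settle whether the shares differ. In barcodes of 1 to 100 UMIs, which mostly hold free RNA, Icam1 stood at 107 CPM in cisplatin (230 UMIs) and 54.5 CPM in saline (202 UMIs). Within the cisplatin library, the tubule level was 1.16 times that of these near-empty barcodes (0.81 to 1.62), so Icam1 in the tubule gate cannot be told apart from free RNA. The cisplatin capillary level was 1.18 times the near-empty level (0.85 to 1.63), and the level of the whole endothelial gate was 0.77 times it (0.61 to 0.97). Free RNA at its estimated share would supply 19.2 of the 127 CPM in cisplatin capillary barcodes and 5.51 of the 42.2 CPM in saline. With that amount subtracted the capillary ratio was 3.22 (1.48 to 8.06).

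Vcam1 encodes the receptor for the integrin VLA-4, carried by lymphocytes and monocytes. In the capillary gate it stood at 106 CPM in cisplatin (39 UMIs) and 23.4 CPM in saline (5 UMIs), a ratio of 4.50 (1.77 to 14.6). The cisplatin UMIs were concentrated, since 29 of the 39 came from 2 of the 9 positive barcodes among 89. Saline had 3 positive barcodes among 207. With the barcode richest in Vcam1 left out of each library the ratio was 7.07 (1.75 to 61.7), with 24 UMIs in cisplatin and 2 in saline. Without the 2 richest barcodes of each library 10 UMIs remained in cisplatin and 1 in saline, too few to be called. Vcam1 was not called either without barcodes holding a podocyte, urothelial or collecting duct marker UMI. Over all thinnings, 2.71% of cisplatin and 0.90% of saline capillary barcodes held a UMI, and the ratio of the mean thinned levels was 2.53. The intervals of the shares overlapped in the random thinning, which is 1 draw and cannot settle whether the shares differ. In the cisplatin tubule gate 1.41% of barcodes held one over all thinnings, at 30.3 CPM. That level was 0.87 times the near-empty one (0.40 to 1.68) and cannot be told apart from free RNA. The 31 saline tubule barcodes had no Vcam1 UMI, which at 3 UMIs allows up to 133 CPM, so the 2 libraries cannot be compared there.

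In the arterial gate Vcam1 stood at 235 CPM in cisplatin (17 UMIs) and 63.2 CPM in saline (37 UMIs), a ratio of 3.73 (1.97 to 6.78). The cisplatin gate has 10 barcodes, and 15 of its 17 UMIs lay in 2 of them. Without the richest barcode of each library the ratio was 2.27 (0.77 to 5.52), and without barcodes above 20000 UMIs it was 1.08. The ratio of the mean thinned levels was 1.15. The arterial call therefore rests on very few barcodes. In the glomerular gate Vcam1 was nearly absent, at 3 UMIs in cisplatin and 1 in saline. Within the cisplatin library its glomerular level was 0.05 times the capillary level (0.01 to 0.17), and its capillary level was 0.45 times the arterial one (0.25 to 0.85). In saline the capillary level was 0.37 times the arterial one (0.11 to 0.95), and the glomerular level was not resolved. Over the pooled endothelial gate Vcam1 stood at 64.9 CPM in cisplatin (85 UMIs) and 49.1 CPM in saline (48 UMIs), a ratio of 1.32 (0.92 to 1.93) that was not called. The pooled gate mixes unequal numbers of each vessel type. With the capillary, glomerular and arterial gates weighted equally the ratio was 3.09. The 10 cisplatin arterial barcodes, with 15 of their 17 Vcam1 UMIs in 2, then carry as much weight as each larger gate. Pooled without barcodes holding other-lineage UMIs the ratio was 1.91 (1.15 to 3.15), and pooled without barcodes above 20000 UMIs 1.74 (1.18 to 2.57). Both were called higher, the only 2 such calls among 20 other settings, over which the pooled ratio ran from 1.13 to 3.09.

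Icam2, a constitutive integrin ligand of endothelium, was not called in any vessel gate as defined. It stood at 300.4 CPM in cisplatin and 244 CPM in saline capillary barcodes, a ratio of 1.23 with 111 and 52 UMIs. Arterial barcodes had 554 CPM in cisplatin and 456 CPM in saline, and glomerular barcodes 194 CPM in cisplatin and 331 CPM in saline (0.59, 0.33 to 1.14). The glomerular ratio was called lower with endothelial gates of 2 markers (0.477) or vessel types set by summed marker UMIs (0.448). Of the 105 cisplatin glomerular UMIs, 27 came from 1 barcode and 71 lay in barcodes with another lineage's UMI, where the level was 159 CPM. Without such barcodes the glomerular Icam2 level was 357 CPM in cisplatin and 318 CPM in saline. In both libraries the capillary level lay below the arterial one, at 0.54 times it in cisplatin (0.37 to 0.80) and 0.53 times it in saline (0.39 to 0.72). Over all thinnings, 11.7% of cisplatin and 10.1% of saline capillary barcodes held a UMI, against 1.62% of cisplatin and 0 of 31 saline tubule barcodes. The pooled endothelial gate gave another picture, with 233 CPM in cisplatin and 391 CPM in saline, a ratio of 0.60 (0.51 to 0.69) that was called lower. That call was lost at up to 10% mitochondrial UMIs (0.69), with free RNA subtracted (0.70) and without other-lineage barcodes (0.80).

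Jam2 encodes JAM-B, a junction protein that binds JAM-C and the integrin VLA-4. It stood at 244 CPM in cisplatin and 211 CPM in saline capillary barcodes (1.15, 0.80 to 1.69), and at 346 CPM in cisplatin and 338 CPM in saline arterial barcodes (1.02). The glomerular gate was lower in both libraries, at 66.5 CPM in cisplatin (36 UMIs) and 76.4 CPM in saline (3 UMIs). The glomerular level was 0.19 times the arterial one in cisplatin (0.11 to 0.33) and 0.23 times it in saline (0.05 to 0.67). Against the capillary level it was 0.27 times in cisplatin (0.18 to 0.41) and 0.36 times in saline (0.07 to 1.13). The saline comparison with capillary barcodes was thus not resolved. Of the 90 cisplatin capillary UMIs, 31 came from 1 barcode and 53 lay in barcodes with another lineage's UMI. The Jam2 level was 277 CPM in barcodes with such a UMI and 208 CPM in the other cisplatin capillary barcodes. Over all thinnings, 6.98% of cisplatin and 8.59% of saline capillary barcodes held a Jam2 UMI. Over 17 other settings the capillary ratio ran from 0.22 to 1.26 and was never called. Pooled over the endothelial gate Jam2 stood at 150 CPM in cisplatin and 307 CPM in saline, a ratio of 0.49 (0.41 to 0.59) that was called lower. Jam2 was close to absent outside endothelium, with 2 UMIs in cisplatin and 0 in saline tubule barcodes and 0 in the 81 cisplatin leukocyte barcodes.

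The make-up of the pooled gate differed along the same axis. Arterial barcodes, with the highest point levels of Icam2 and Jam2, supplied 5.52% of the endothelial UMIs in cisplatin and 59.8% in saline. Glomerular barcodes, with the lowest for Jam2, supplied 41.4% in cisplatin and 4.01% in saline. Not every step of this order was resolved. Jam2 capillary over arterial was 0.70 in cisplatin (0.45 to 1.14), and Icam2 glomerular over arterial was 0.73 in saline (0.38 to 1.26). Of the 40 cisplatin arterial Icam2 UMIs, 29 lay in 2 barcodes, and 7 of the 10 barcodes held another lineage's UMI. With the 3 vessel gates weighted equally, which also leaves out barcodes of no vessel type, the endothelial ratio was 1.02 for Icam2 and 1.05 for Jam2. The 10 cisplatin arterial barcodes then carry as much weight as each larger gate. Leaving out the barcodes of no vessel type without reweighting gave 0.66 for Icam2 (0.56 to 0.78) and 0.52 for Jam2 (0.42 to 0.64), both still called lower. With those barcodes kept as another group of equal weight the ratio was 0.86 for Icam2 and 0.79 for Jam2. Barcodes with no vessel type were lower in cisplatin for both genes, at 151 CPM in cisplatin and 364 CPM in saline for Icam2, and at 138 CPM in cisplatin and 385 CPM in saline for Jam2. Their free RNA share was 40.3% in cisplatin and 14.5% in saline, and its part in this difference was not tested. Over the pooled gate 3 of the 6 measured members were called higher (Icam1, Alcam and Mfge8) and 2 lower, beside 18.6% of 9779 genes higher and 10.9% lower.

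**Figure D3:**
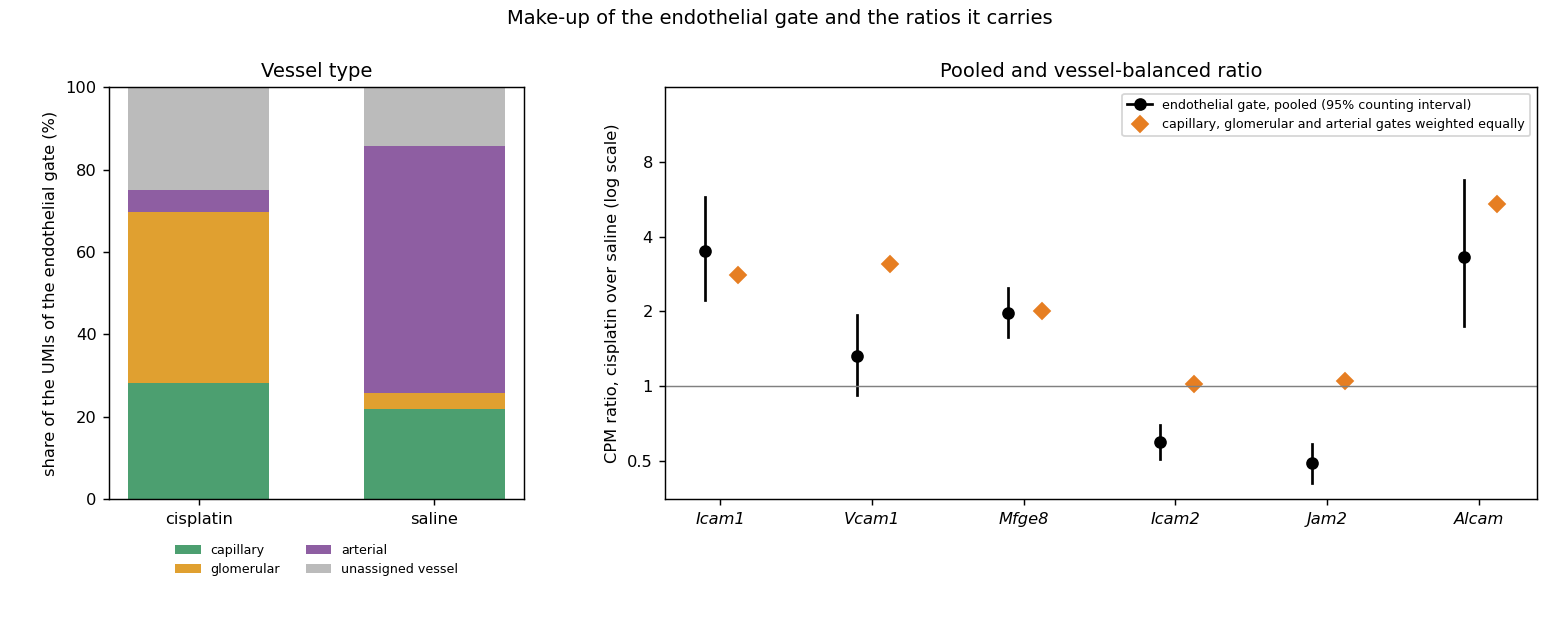
Left, the share of endothelial UMIs (%) by vessel type, with cisplatin left of saline; right, the CPM ratio of cisplatin over saline on a log scale for the pooled endothelial gate (black, exact 95% interval) and with the 3 vessel gates weighted equally and barcodes of no vessel type left out (orange). Icam2 is 0.60 pooled and 1.02 balanced, and Jam2 is 0.49 pooled and 1.05 balanced, while Icam1 stays above 2.

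Alcam encodes a receptor for the T cell protein CD6. It was called higher over the endothelial gate, at 40.5 CPM in cisplatin (53 UMIs) and 12.3 CPM in saline (12 UMIs), a ratio of 3.30 (1.74 to 6.79). Of the 53 cisplatin UMIs, 51 lay in barcodes that also held a mural, urothelial, collecting duct, Nphs1 or Wt1 UMI, and none of the 12 saline UMIs did. Alcam stood at 55.2 CPM in those cisplatin barcodes and 5.21 CPM in the other cisplatin endothelial barcodes. The 17 positive cisplatin barcodes had a median of 22456 UMIs, against 2065 in the 11 positive saline barcodes. Without the other-lineage barcodes 2 UMIs remained in cisplatin and 12 in saline, a ratio of 0.39 (0.04 to 1.75). The pooled value for Alcam therefore carries no direction for endothelial barcodes free of such UMIs. In barcodes of 1 to 100 UMIs Alcam ran the other way, at 28.0 CPM in cisplatin (60 UMIs) and 55.3 CPM in saline (205 UMIs), a ratio of 0.51 (0.37 to 0.68).

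**Figure D4:**
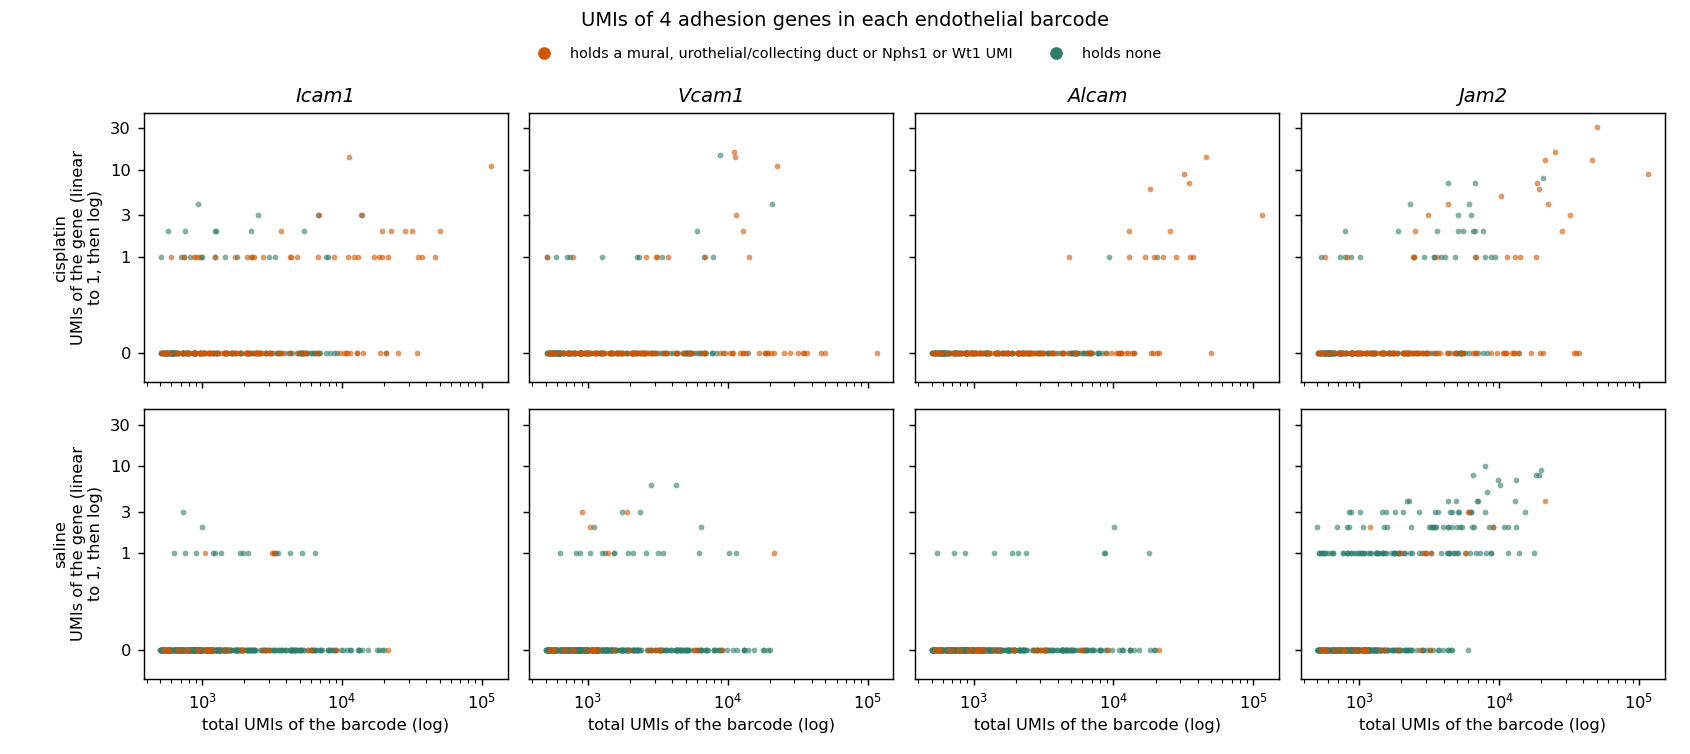
UMIs of Icam1, Vcam1, Alcam and Jam2 (linear to 1, then logarithmic) against total UMIs (logarithmic) for each endothelial barcode, with 298 cisplatin barcodes above 461 saline barcodes; orange points also hold a UMI of another lineage. Alcam in cisplatin lies almost wholly in deep orange barcodes, while Icam1 is spread over the whole range of depth.

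The selectins were at the edge of detection. Sele, the cytokine-induced selectin whose promoter is given above, had 7 UMIs in 4 of 298 cisplatin endothelial barcodes and 0 UMIs in the 461 saline ones, which at 3 counts allows up to 0.651% of saline barcodes to hold a Sele UMI and sets no limit on cells that express the gene. Its level of 5.35 CPM in cisplatin was 1.74 times the level that 3 UMIs would give in saline. The exact lower bound of the ratio was 1.08. The 4 positive barcodes were 2 capillary and 2 glomerular, and 2 of them held another lineage's UMI. Icam1 was also found in 3 of the 4, against 19.4% of the cisplatin endothelial barcodes without Sele. The 4 had a median of 10006.5 UMIs and those without Sele 1475.5, and the part of depth in this overlap was not tested. No Sele UMI was found among barcodes of 1 to 100 UMIs in either library. Barcodes of 101 to 499 UMIs held 8 in cisplatin and 0 in saline, from 13378319 and 1047366 UMIs, a difference in depth that leaves the levels unresolved. Selp, which endothelium and platelets store for rapid release, had 1 UMI in cisplatin and 3 in saline endothelial barcodes, the saline ones all arterial. Neither selectin had enough UMIs to be called.

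Cd44, the hyaluronan receptor of leukocytes and injured epithelium, had most of its gated UMIs in leukocyte barcodes. The 81 cisplatin leukocyte barcodes held 29 UMIs (112 CPM, in 12 barcodes), and the 3 saline leukocyte barcodes held 2. The endothelial gate held 2 UMIs in each library. Within cisplatin, the leukocyte level was 73.3 times the endothelial one (18.5 to 634). Capillary barcodes had no Cd44 UMI in either library, which at 3 UMIs allows up to 8.12 CPM in cisplatin and 14.1 CPM in saline.

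Mfge8 encodes a secreted protein that links phosphatidylserine on dying cells to the alpha-v integrins of phagocytes. In the capillary gate it stood at 276 CPM in cisplatin (102 UMIs) and 159 CPM in saline (34 UMIs), a ratio of 1.73 (1.16 to 2.63). In the glomerular gate it stood at 264 CPM in cisplatin (143 UMIs) and 76.4 CPM in saline (3 UMIs), a ratio of 3.45 (1.16 to 16.9). Both were called higher. In the glomerular gate 41 of the 143 cisplatin UMIs came from 1 barcode, and without that barcode the ratio was 4.61 (1.24 to 38.6). With vessel types set by summed marker UMIs it was 1.94 (0.87 to 5.36) and not called. Of the same 143 UMIs, 129 lay in barcodes with another lineage's UMI. Mfge8 stood at 289 CPM in those and 147 CPM in the other cisplatin glomerular barcodes. Without the barcodes holding such UMIs, 14 UMIs remained in cisplatin and 2 in saline, too few to be called. The arterial values of 125 CPM in cisplatin and 93.9 CPM in saline were not called (ratio 1.33). Over the endothelial gate the level was 224 CPM in cisplatin and 113 CPM in saline, a ratio of 1.97 (1.58 to 2.48), and 1.89 (1.38 to 2.56) without other-lineage barcodes. Over all thinnings, 12.97% of cisplatin and 8.40% of saline capillary barcodes held a UMI, and the ratio of the mean thinned levels was 1.85. In the random thinning the capillary CPM ratio of 1.42 (0.67 to 2.87) was not called. Mfge8 UMIs were also found in tubule barcodes, at 146 CPM in cisplatin (48 UMIs) and 44.3 CPM in saline (1 UMI), and in barcodes of 1 to 100 UMIs, at 149 CPM in cisplatin and 126 CPM in saline. The cisplatin tubule level was 0.97 times the near-empty one (0.70 to 1.32) and cannot be told apart from free RNA.

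**Figure D5:**
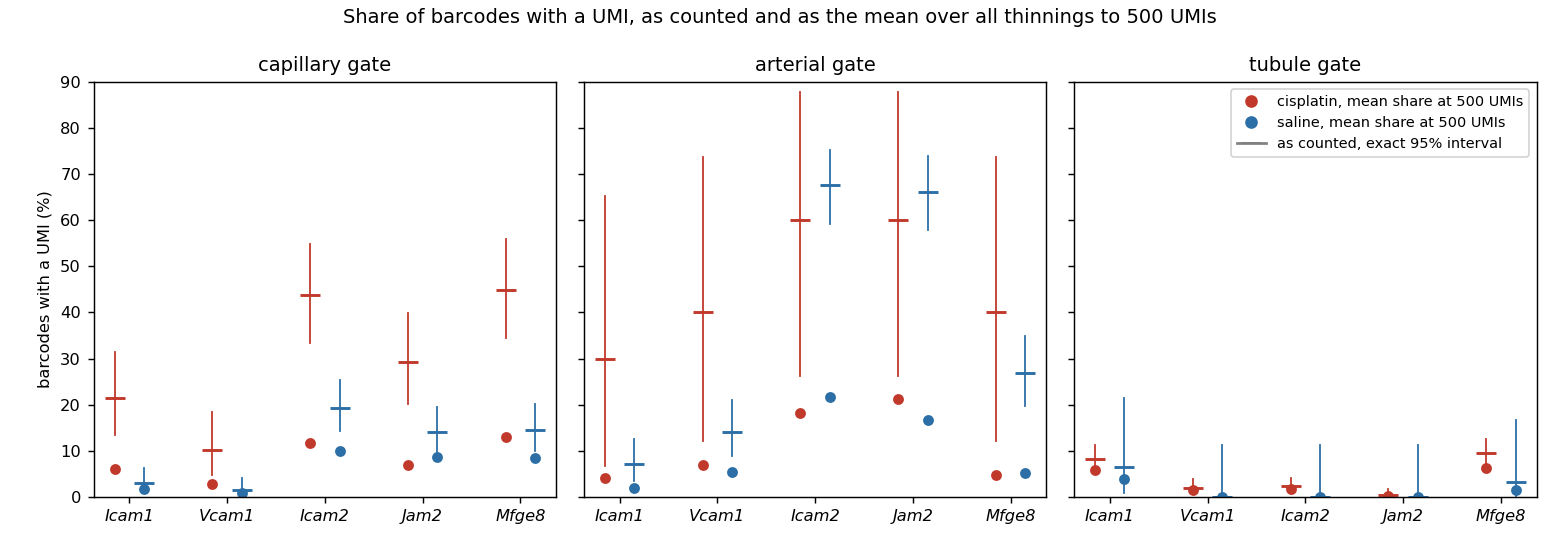
Share of barcodes with a UMI (%) in the capillary, arterial and tubule gates as counted (dashes, with exact 95% intervals) and as the mean over all thinnings of each barcode to 500 UMIs (points, with no interval), with cisplatin in red left of saline in blue. In the capillary gate the points of both libraries lie closer together than the dashes for all 5 genes, with Icam1 at 6.09% in cisplatin and 1.61% in saline, and the arterial cisplatin gate of 10 barcodes has wide intervals.

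Barcodes of 1 to 100 UMIs held 2140605 UMIs in cisplatin and 3703779 in saline, more than any gate. Of the 7 members measured there, Icam1, Vcam1 and Cd44 were called higher and Alcam and Jam2 lower, beside 14.4% of 12375 genes higher and 20.7% lower. Icam1 had a ratio of 1.97 (1.62 to 2.39). Vcam1 stood at 35.04 CPM in cisplatin and 15.7 CPM in saline, a ratio of 2.24 (1.57 to 3.21). Cd44 stood at 10.3 CPM in cisplatin (22 UMIs) and 4.32 CPM in saline (16 UMIs), a ratio of 2.38 (1.19 to 4.85). Jam2 stood at 20.6 CPM in cisplatin and 31.0 CPM in saline, a ratio of 0.66 (0.457 to 0.945), but was not called when mitochondrial genes and Malat1 were left out of the total (0.84). Mitochondrial genes made up 30.6% of these UMIs in cisplatin and 3.84% in saline. The cells that shed this RNA are not known from these data, so the values describe the suspension and no cell type. Barcodes of 101 to 499 UMIs had Icam1 called higher and Alcam and Icam2 lower, beside 8.46% of 13796 genes higher and 22.2% lower.

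Icam1 and Vcam1 were found in some of the same barcodes. Of the cisplatin endothelial barcodes with a Vcam1 UMI, 10 of 26 (38.5%) also held Icam1, against 18.4% of those without Vcam1. In saline the shares were 7.41% (2 of 27) and 4.15%. In cisplatin the Vcam1-positive barcodes had a median of 3573.5 UMIs and the negative ones 1434, and the part of depth in this overlap was not tested.

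Other genes of leukocyte trafficking differed in both directions. Of 21 further endothelial-side genes, 14 were measured in the capillary gate, with 2 called higher and 3 lower, beside 9.28% and 11.5% of all genes, and 17 in the endothelial gate, with 4 higher and 6 lower, beside 18.6% and 10.9% of all genes. Their median log2 ratio was -0.09 in the capillary and -0.48 in the endothelial gate, beside -0.08 and 0.10 over all genes. Lgals3, which encodes the sugar-binding protein galectin-3, had 25 UMIs in cisplatin and 0 in saline capillary barcodes. The cisplatin level was 4.81 times that of 3 UMIs in saline (exact lower bound of the ratio 3.63). Over the endothelial gate Lgals3 had 178 UMIs in cisplatin and 2 in saline. In barcodes of 1 to 100 UMIs it stood at 88.8 CPM in cisplatin and 6.75 CPM in saline. It thus differed in free RNA too. Vwf, the platelet-binding protein of endothelium, was higher in the arterial gate, at 416 CPM in cisplatin (30 UMIs) and 73.4 CPM in saline (43 UMIs), a ratio of 5.66 (3.43 to 9.23), with the cisplatin UMIs in 4 of 10 barcodes. It was lower in cisplatin over the whole endothelial gate (0.36, 0.23 to 0.54) and in barcodes of 1 to 100 UMIs (0.33), and capillary barcodes held 0 UMIs in cisplatin and 11 in saline. F11r, which encodes the junction protein JAM-A, was lower in the arterial gate, at 111 CPM in cisplatin and 316 CPM in saline, a ratio of 0.35 (0.15 to 0.71). The cisplatin arterial value rests on 8 UMIs in 4 of 10 barcodes. F11r was also lower in the glomerular gate (0.37, 0.21 to 0.70). It was not called in the capillary gate, at 287 CPM in cisplatin (106 UMIs) and 347 CPM in saline (74 UMIs).

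Of 15 leukocyte-side integrins and ligands, 4 were measured in the capillary gate, with 1 called higher and 1 lower, beside the same 9.28% and 11.5% of all genes. Itgb1, the beta subunit of VLA-4 and of matrix-binding integrins, was lower in capillary barcodes, at 425 CPM in cisplatin and 1069 CPM in saline, a ratio of 0.40 (0.32 to 0.49). It was also lower in barcodes of 1 to 100 UMIs (0.47, 0.40 to 0.55). Itgav, the alpha-v integrin subunit, had 24 UMIs in cisplatin and 0 in saline capillary barcodes. The cisplatin level was 4.62 times that of 3 UMIs in saline (exact lower bound of the ratio 3.48). At 65.0 CPM it lay below the 204 CPM of Itgav in cisplatin barcodes of 1 to 100 UMIs. The part of free RNA in the capillary value was not tested. The partners of Icam1 and Vcam1 were found in the cisplatin leukocyte gate, with 47 UMIs of Itgal, 49 of Itgb2 and 17 of Itga4. Selplg, the P-selectin ligand, had 66 UMIs there.

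Levels of the members were compared with those of 4422 genes over 10 points, the capillary, glomerular, arterial, tubule and leukocyte gates in both libraries. The points share their libraries, and 1 of them rests on 3 barcodes, so the correlations of log2(CPM + 10) describe the pattern and carry no p-value. The closest to Icam1 was Bhlhe40 (Pearson r 0.94), followed by Brap and Gm42418 (both 0.93). The closest to Icam2 were Kctd10 and Ece1 (both 0.99) and Tmem65 (0.98). Jam2 was closest to She (0.98), Gata2 (0.97) and Ramp2 (0.97), the last a marker used in the endothelial gate. Mfge8 was closest to Tsc22d1 (0.98), then Atp6v1a and Tpm1 (both 0.93). Vcam1 had its closest gene in Mgp (0.86), with Rcn2 (0.85) and Ube2g1 (0.84) after it, and the other 4 members had too few UMIs.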

How the data were processed

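Single-cell RNA was measured in 1 cisplatin and 1 saline library. The authors deposited raw UMI counts per gene and barcode, unfiltered. Per the submitters' processing notes, Cell Ranger 6.0.1 and mm10 were used; per the file headers, the matrices carry a Cell Ranger 4 mark. The annotation version was not given in these notes. Gates were built in Python 3.11.15 with numpy 2.4.6 and scipy 1.17.1 from marker lists, with a minimum of 500 UMIs and at most 20% mitochondrial UMIs per barcode. The members, marker lists and gene lists were chosen with earlier results of these data known. Named genes were the 9 members, at most 3 called list genes per gate with the interval bound farthest from 1, and the 3 genes most like each member; other list genes given by value are those members' partners and were chosen after their values were seen. No doublet caller was run and no barcode was removed as a doublet; the largest barcode held 116215 UMIs. UMIs were summed per gate and library. Ratios have exact conditional binomial (Clopper-Pearson) 95% intervals, levels Poisson and shares Clopper-Pearson intervals. The floor for a count of 0 was 3 UMIs. The interval was tested on simulated capillary counts drawn as independent Poisson values. That test does not cover UMIs that clump in a few barcodes. Free RNA shares came from proximal tubule markers in barcodes of 1 to 100 UMIs. Alternatives changed the UMI, mitochondrial and marker minimums, vessel assignment, other-lineage barcodes, free RNA, scaling, thinning to 500 UMIs (1 random draw, and the exact mean over all draws) and the filter on low counts.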

Additional observations from a re-analysis of the deposited data

Results flagged for a closer look

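Cisplatin had 1712 barcodes with at least 500 UMIs and over 20% mitochondrial UMIs, which no gate used, and saline had 3. In these unused barcodes 5 members had at least 20 UMIs in cisplatin and at most 3 in saline: 100 UMIs of Icam1, 21 of Icam2, 35 of Vcam1, 31 of Alcam and 220 of Mfge8. Jam2 had 13 and Cd44 had 3, and the selectins had none. The saline barcodes held 1 UMI each of Vcam1 and Mfge8 and 0 of the other 3, from 1984 UMIs in all, so no level can be compared.

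Barcodes of 101 to 499 UMIs entered no comparison of the gates either. Icam1 stood there at 92.6 CPM in cisplatin (1239 UMIs) and 32.5 CPM in saline (34 UMIs), a ratio of 2.85 (2.03 to 4.14), the only member called higher, beside 8.46% of 13796 genes higher and 22.2% lower. The median log2 ratio of all genes in these barcodes was -0.20.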

How the results depend on the processing

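No paired analysis was possible because each treatment has 1 library, and no replicate could be left out. Reversed: with the 3 vessel gates weighted equally, Icam2 was 1.02 and Jam2 1.05 over the endothelial gate; Alcam was 0.853 without barcodes holding a podocyte, urothelial or collecting duct marker UMI, 0.309 in 1 random thinning to 500 UMIs, 0.455 over all thinnings and 0.39 without core podocyte, mural, urothelial or collecting duct UMIs. Icam1 was 6.83 over the endothelial gate without podocyte, urothelial or collecting duct marker barcodes and, in the capillary gate, 18.6 in the random thinning (8 UMIs in cisplatin and 1 in saline) but 3.47 over all thinnings. Members called higher in the endothelial gate numbered 3, but 1 without those marker barcodes and 1 after the random thinning; members called lower numbered 2, but 1 at up to 10% mitochondrial UMIs, with free RNA subtracted or without core other-lineage UMIs. In the capillary gate 3 were called higher, but 1 without the marker barcodes and 0 after thinning. In the glomerular gate 1 was higher, but 0 with vessels assigned by summed UMIs, without marker barcodes, after thinning or without core other-lineage UMIs; 0 were lower, but 1 with 2 markers or summed UMIs. In the arterial gate 1 was higher, but 2 with summed UMIs and 0 after thinning, without barcodes above 20000 UMIs or without core other-lineage UMIs. Thinning leaves few UMIs, and some members then fall under 20 UMIs, such as Icam1 in the capillary gate. Mfge8 in the capillary gate did not fall under that limit. After the random thinning 11 cisplatin and 21 saline capillary barcodes held a Mfge8 UMI, and the Mfge8 ratio of 1.42 was not called. Other causes of the lost calls were not tested. In barcodes of 1 to 100 UMIs 2 were lower, but 1 under either other scaling. In barcodes of 101 to 499 UMIs 1 was higher, but 3 without mitochondrial genes and Malat1 and 2 with median scaling; 2 were lower, but 1 without mitochondrial genes and Malat1. The settings without core other-lineage UMIs, without barcodes above 20000 UMIs, without the 1 or 2 richest barcodes, over all thinnings and with other treatments of barcodes of no vessel type were chosen after seeing the data. Depth limits every saline glomerular, tubule and leukocyte value and both selectins.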
